A study of Mus musculus with 8 samples.

Results

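The genes described here are 10 that are characteristic of microglia in the resting, homeostatic state, measured in the young and the aged mouse brain: P2ry12, P2ry13, Tmem119, Cx3cr1, Csf1r, Sall1, Siglech, Gpr34, Aif1 and Olfml3. They were taken by name as genes of the resting microglial programme. All 10 were among the 22430 genes listed in the count table, and all 10 were among the 16730 genes that passed the filter on low counts and were tested. RNA came from homogenized hemispheres of male C57Bl/6JRj mice, for which no transgene or treatment is named, 4 animals of 6 months (6m) and 4 of 24 months (24m), and polyadenylated RNA was sequenced with short paired reads. The comparison asks how these genes differ between the brain of the young adult and that of the aged animal. Library totals were 63460940 to 103462414 counts, and the deepest library, 24m replicate 1, also stood apart from its group: its count differences from the other 24m libraries were 182 to 425 in chi-square units per degree of freedom, against 13.1 to 61.8 among those 3 libraries and 8.24 to 48.8 among the 6m libraries. The study names whole brain and hemisphere as the tissue, and the neuron, astrocyte and oligodendrocyte marker genes examined were all detected in it.

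Microglia are the resident macrophages of the brain parenchyma. They arise from yolk sac progenitors, renew themselves locally, and depend throughout life on signalling through the CSF1 receptor. In the healthy brain they carry a set of surface receptors with which they read signals from neurons: the fractalkine receptor CX3CR1, the ADP receptors P2RY12 and P2RY13, and the lysophosphatidylserine receptor GPR34. This resting state is maintained by transforming growth factor beta and by transcription factors that include SALL1 and PU.1, and it is known to be reduced when microglia take up the disease-associated state. Some of these genes, among them Cx3cr1, Csf1r and Aif1, are also expressed by macrophages at the borders of the brain and by monocytes. In homogenized tissue, fewer cells of a type and less RNA per cell cannot be told apart.

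The promoters of 4 of the genes are shown here because 3 of them (Cx3cr1, P2ry12 and P2ry13) passed both thresholds of the comparison of ages and the fourth (Siglech) had a lower mean at 24m. Each runs from 250 bases before to 50 bases after the start of the canonical transcript, 5′ to 3′ on the strand of the gene, read from the GRCm39 genome at chr9:119897318-119897617 (minus strand) for Cx3cr1, chr3:59170380-59170679 (minus strand) for P2ry12, chr3:59118255-59118554 (minus strand) for P2ry13 and chr7:55417682-55417981 (plus strand) for Siglech. Capitals mark the core letters of the motif of PU.1, GAGGAA, or their reverse complement, TTCCTC.
Cx3cr1: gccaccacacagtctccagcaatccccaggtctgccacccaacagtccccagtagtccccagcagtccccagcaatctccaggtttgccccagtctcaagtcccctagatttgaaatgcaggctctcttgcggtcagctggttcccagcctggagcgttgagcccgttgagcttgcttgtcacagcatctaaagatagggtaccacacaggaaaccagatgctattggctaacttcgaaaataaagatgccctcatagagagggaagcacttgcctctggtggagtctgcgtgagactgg
P2ry12: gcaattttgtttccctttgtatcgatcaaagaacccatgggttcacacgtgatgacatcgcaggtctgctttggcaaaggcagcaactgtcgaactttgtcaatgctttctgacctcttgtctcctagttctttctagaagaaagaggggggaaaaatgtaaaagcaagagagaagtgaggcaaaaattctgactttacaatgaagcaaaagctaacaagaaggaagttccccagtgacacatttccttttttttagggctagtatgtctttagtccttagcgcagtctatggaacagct
P2ry13: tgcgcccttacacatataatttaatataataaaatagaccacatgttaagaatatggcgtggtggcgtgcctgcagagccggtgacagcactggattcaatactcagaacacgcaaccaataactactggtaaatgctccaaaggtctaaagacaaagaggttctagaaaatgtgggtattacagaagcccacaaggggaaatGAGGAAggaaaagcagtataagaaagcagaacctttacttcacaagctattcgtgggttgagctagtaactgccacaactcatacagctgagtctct
Siglech: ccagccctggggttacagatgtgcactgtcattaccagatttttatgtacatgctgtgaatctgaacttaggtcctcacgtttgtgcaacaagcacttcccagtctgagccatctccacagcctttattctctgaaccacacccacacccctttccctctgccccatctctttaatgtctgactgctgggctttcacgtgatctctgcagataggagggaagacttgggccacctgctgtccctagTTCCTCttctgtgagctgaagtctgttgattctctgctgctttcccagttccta
The windows of P2ry13 and Siglech each held 1 match, beginning at position -47 and -4 relative to the transcript start, and those of Cx3cr1 and P2ry12 held none. Over all 10 genes, 3 promoters (Csf1r, P2ry13 and Siglech) held the letters GAGGAA on either strand, against 27.7% of the 22281 promoters of the same length that were searched. The letters TATAAA of the TATA box were found in 0 of the 10 promoters and in 13.5% of all, both strands counted. A match in these windows is a description of the sequence. In the RefSeq promoter table (GRCm38.p6), the 50 bases around the start were found for Cx3cr1, P2ry12, P2ry13 and Siglech. From their position, the windows overlap the RefSeq ones by 295, 277, 299 and 300 of these 300 bases. The bases outside those 50 were not compared. For Aif1, counted above and not printed, the bases around the start are not in the RefSeq window, and Csf1r, Gpr34 and Tmem119 were not compared with that table.

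Of the 10 genes, 3 rose with age (Cx3cr1, P2ry13 and P2ry12) and 0 fell, where a call required adjusted p ≤ 0.05 and an absolute log2 fold change (log2FC) of 0.58. DESeq2 and limma-voom also called 3 higher and 0 lower, DESeq2 on quantile-normalized counts called 2 higher (Cx3cr1 and P2ry13) and 2 lower (Siglech and Aif1), and at an unadjusted p under 0.05 in edgeR 1 gene, Siglech, was lower. The background was high in this comparison, with 43.6% of all 16730 tested genes called, 25.3% higher at 24m and 18.3% lower, so that 3 of 10 is near the share of all genes. Regardless of fold, 5 of the 10 had an adjusted p of at most 0.05 with a higher level at 24m (the same 3, Tmem119 and Csf1r) and 0 with a lower one, against 32.7% and 29.9% of all genes. Every 24m library lay above every 6m library for 3 of the genes (P2ry13, Cx3cr1 and Csf1r) and below for 0, and the ages overlapped for 7, whereas 55.2% of all genes did not overlap, 28.4% lying wholly above and 26.8% wholly below. The median log2FC of the 10 genes was 0.36 (-0.34 to 1.72), and that of all tested genes was -0.0034. Among the 7431 tested genes whose exons add up to a length in the range of the 10 (3068 to 7361 bases), the median was -0.02, with 22.6% called higher and 16.3% lower. Over the 10 genes, 7 estimates were positive and 3 negative.

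**Figure D1:**
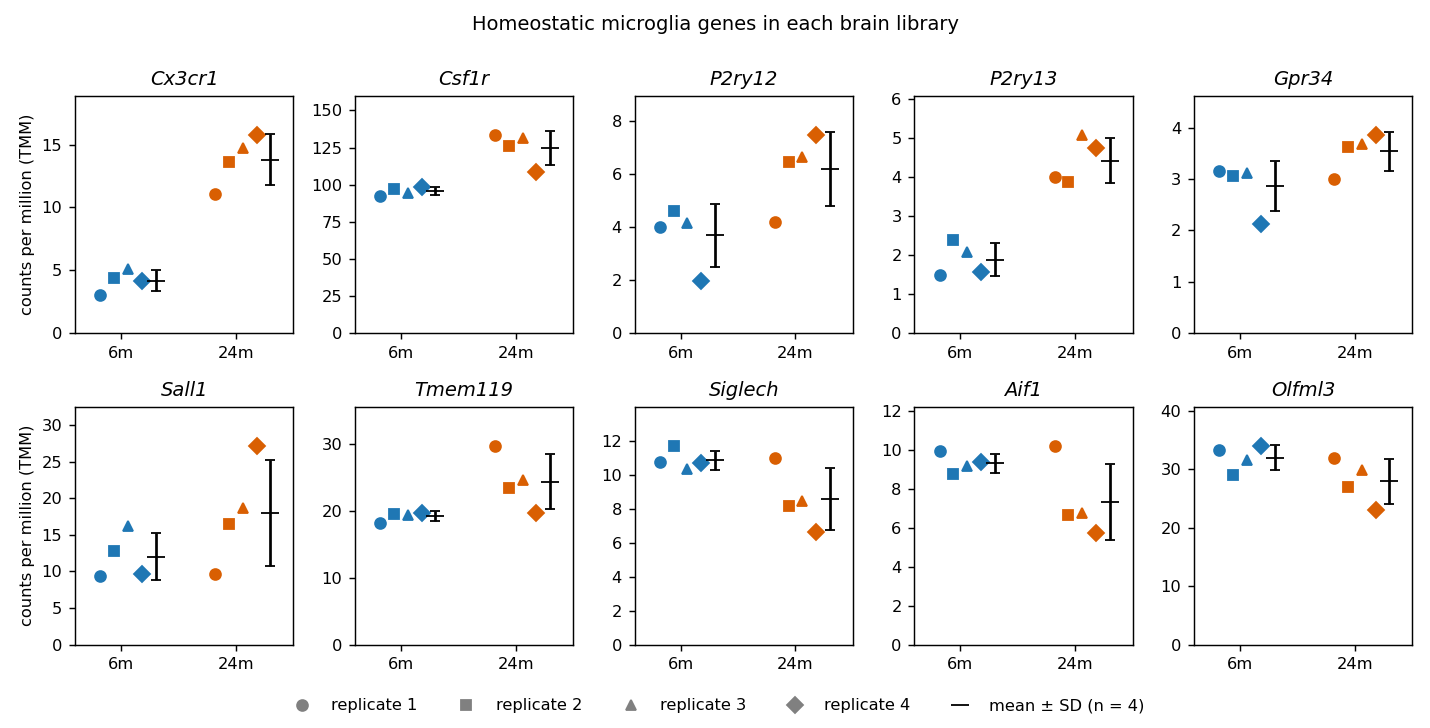
Library-scaled counts (CPM, vertical axis, each from 0) of the 10 genes in each library, with 6m in blue and 24m in orange, a symbol per replicate number, and the mean ± SD (n = 4) beside each group. Cx3cr1 went from 4.18 to 13.8 CPM without overlap of the ages, whereas Siglech, Aif1 and Olfml3 had lower means at 24m with 24m replicate 1 inside or above the range of the 6m libraries.

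CX3CR1 is the receptor for fractalkine, a chemokine made by neurons, and its gene showed the largest difference of the 10. Cx3cr1 (ENSMUSG00000052336, chromosome 9, 119877749 to 119898945, minus strand) had 3.06, 4.40, 5.13 and 4.12 CPM (counts per 1000000 of the library total, scaled with trimmed mean of M values factors) in 6m replicates 1 to 4, and 11.1, 13.6, 14.8 and 15.7 CPM in 24m replicates 1 to 4. The lowest 24m library was above the highest 6m library by more than the range of either age. The mean rose from 4.18 ± 0.855 to 13.8 ± 2.02 CPM (SD, n = 4 each), a log2FC of 1.72 ± 0.17 (SE; 95% interval 1.33 to 2.11; adjusted p = 6.92e-05, edgeR quasi-likelihood test with Benjamini-Hochberg adjustment). This estimate lay at the 94.8th percentile of all tested genes. It stayed between 1.40 and 1.95 over 21 other settings of the processing, with 1.83 when 24m replicate 1 was left out, and was called in each of them. The ligand moved the same way: Cx3cl1, which encodes fractalkine, rose from 222 ± 25.9 to 393 ± 28.9 CPM (log2FC 0.83 ± 0.10, adjusted p = 0.000192), without overlap of the ages. Adam10, a sheddase that can release fractalkine from the membrane, also rose (1.79 ± 0.32, adjusted p = 0.00109), and Adam17, another such sheddase, had a log2FC of 0.14 ± 0.15 (adjusted p = 0.431).

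Csf1r encodes the receptor for the survival factors CSF1 and IL-34. Csf1r (ENSMUSG00000024621, chromosome 18, 61229714 to 61266535, plus strand) was the most abundant of the 10 genes and had 92.5, 97.4, 94.7 and 98.6 CPM in the 6m libraries and 133, 126, 131 and 108 CPM in the 24m libraries. All 24m libraries were above all 6m libraries, and 24m replicate 4 was the lowest of its group. The log2FC was 0.38 ± 0.08 (95% interval 0.19 to 0.57, adjusted p = 0.00328), past the p threshold and short of that on fold. With the trend over exonic length removed the estimate was 0.15 (adjusted p = 0.206). It was 0.60 under scaling by library totals alone, past both thresholds. Part of the exons of Csf1r, 1461 bases or 19.8%, overlap exons of Hmgxb3 on the opposite strand, whose log2FC was 0.30 ± 0.08 (adjusted p = 0.00811); whether strand was used in the counting was not stated, and the part of shared reads in these values was not tested. The ligands differed in direction. Csf1 rose from 7.36 ± 0.546 to 18.04 ± 2.53 CPM (log2FC 1.29 ± 0.12, adjusted p = 5.6e-05). Il34, the ligand made mainly by neurons, had 65.5 ± 3.15 CPM at 6m and 47.6 ± 5.06 CPM at 24m (-0.46 ± 0.09, adjusted p = 0.00201), with every 24m library below every 6m library and the fold threshold not reached.

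P2RY12 and P2RY13 are ADP receptors that lie next to each other on chromosome 3, and P2RY12 directs microglial processes toward sites of injury. P2ry12 (ENSMUSG00000036353, chromosome 3, 59123682 to 59170429, minus strand) had 3.99, 4.62, 4.16 and 1.97 CPM in the 6m libraries and 4.20, 6.47, 6.64 and 7.46 CPM in the 24m libraries. The lowest 24m library, replicate 1, was within the range of 6m, and 6m replicate 4 had less than any other library. The mean rose from 3.69 ± 1.18 to 6.19 ± 1.40 CPM, a log2FC of 0.75 ± 0.27 (95% interval 0.15 to 1.34, adjusted p = 0.0321). This call was not stable: leaving out 6m replicate 1 raised the adjusted p to 0.0582, and leaving out replicate 2, 3 or 4 of the aged group raised it to 0.0681, 0.0727 or 0.0744. Leaving out 6m replicate 4 brought the log2FC to 0.54, under the threshold. Without 24m replicate 1 the log2FC was 0.90 (adjusted p = 0.00531).

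P2ry13 (ENSMUSG00000036362, chromosome 3, 59114539 to 59118304, minus strand) had 1.49, 2.38, 2.09 and 1.57 CPM in the 6m libraries and 4.01, 3.87, 5.07 and 4.73 CPM in the 24m libraries. The ages did not overlap, and replicates 1 and 2 were the lower pair of the aged group. The mean rose from 1.88 ± 0.422 to 4.42 ± 0.575 CPM (log2FC 1.23 ± 0.18, 95% interval 0.83 to 1.63, adjusted p = 0.000404), and the gene was called in each of the 21 other settings (0.92 to 1.54). It rested on 98 to 422 reads per library. Related receptors beside it on chromosome 3 gave other values: P2ry14, the UDP-glucose receptor, had 0.967 and 0.812 CPM (-0.25 ± 0.17, adjusted p = 0.216), and Gpr171 fell (-2.32 ± 0.35, adjusted p = 0.000488). The level of Gpr171 was low, with 0.669 CPM at 6m and 0.130 CPM at 24m, from 7 to 61 reads per library. The transcripts of P2ry12 and P2ry13 share no identical run longer than 11 bases, and over the 15 pairs of these receptor genes the longest shared run was 17 bases. The enzyme that degrades ATP and ADP outside the cell, encoded by Entpd1, had 6.23 ± 0.475 CPM at 6m and 8.00 ± 0.335 CPM at 24m (0.36 ± 0.10, adjusted p = 0.0119), under the fold threshold. Nt5e, which encodes the ectoenzyme that turns AMP into adenosine, rose (1.45 ± 0.27, adjusted p = 0.00148). Taking the ligands and enzymes of all these receptors together, 4 of 8 genes (Cx3cl1, Csf1, Nt5e and Adam10) were called higher and 0 lower, with the same counts by DESeq2 and limma-voom. Among all tested genes, 25.3% were called higher and 18.3% lower by edgeR. The median log2FC of the 8 genes was 0.59. At an unadjusted p under 0.05, 1 of the 8, Il34, was lower.

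GPR34, a receptor for lysophosphatidylserine, is the remaining G protein-coupled receptor of the set. Gpr34 (ENSMUSG00000040229, chromosome X, 13489625 to 13507116, plus strand) had 3.15, 3.05, 3.12 and 2.13 CPM at 6m and 2.99, 3.62, 3.69 and 3.85 CPM at 24m. The ages overlapped through 24m replicate 1, and 6m replicate 4 was the lowest library, as it was for P2ry12. The log2FC was 0.30 ± 0.16 (95% interval -0.05 to 0.66, adjusted p = 0.119) and missed the threshold. It was -0.03 with DESeq2 on quantile-normalized counts. It passed the p threshold and not the fold threshold with the length trend removed (0.57, adjusted p = 0.0196), under library totals alone (0.52, adjusted p = 0.0327) and without 24m replicate 1 (0.39, adjusted p = 0.0454). Pla1a, which encodes a phospholipase that makes lysophosphatidylserine, had a log2FC of 0.14 ± 0.24 (adjusted p = 0.636).

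These small receptor genes lie within larger genes on the opposite strand, and the larger genes rose. P2ry12 and P2ry13 are inside Med12l, a Mediator subunit gene, and 294 bases (9.17%) of the P2ry12 exons overlap exons of Med12l, against 0 bases for P2ry13. Med12l had 2.76, 2.70, 2.52 and 2.42 CPM at 6m and 3.78, 10.02, 8.35 and 13.7 CPM at 24m (log2FC 1.78 ± 0.32, adjusted p = 0.00117). Gpr34 is inside Cask, which encodes a synaptic scaffold kinase, with 0 bases of exonic overlap, and Cask had 6.31, 7.96, 7.68 and 4.86 CPM at 6m and 9.32, 16.3, 16.3 and 22.9 CPM at 24m (1.27 ± 0.26, adjusted p = 0.00218). Like P2ry12 and Gpr34, both larger genes were lowest in replicate 1 and highest in replicate 4 among the 24m libraries, and both were lowest in replicate 4 among the 6m libraries. P2ry13, also inside Med12l, was lowest in replicate 2 and highest in replicate 3 at 24m, and lowest in replicate 1 at 6m. Sall1 and Cx3cr1, the latter inside no larger gene, had the same 24m order as Med12l and Cask. The paper names a directional library kit. The part of reads from Med12l and Cask in the receptor values was not tested.

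SALL1 is a zinc finger transcription factor that sets microglia apart from other macrophages. Sall1 (ENSMUSG00000031665, chromosome 8, 89753863 to 89770823, minus strand) had 9.42, 12.8, 16.3 and 9.64 CPM at 6m and 9.66, 16.5, 18.7 and 27.1 CPM at 24m. The 24m libraries spread widely, from a value near the lowest of 6m to the highest of all 8. The log2FC was 0.58 ± 0.29 (95% interval -0.07 to 1.23, adjusted p = 0.106). Without 24m replicate 1 it was 0.80 (adjusted p = 0.00624) and the gene was called, and without 24m replicate 4 it was 0.31 (adjusted p = 0.314).

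Of the 14 regulators of the microglial programme that were tested (transcription factors and components of transforming growth factor beta signalling), 10 were called higher and 0 lower by edgeR, against 25.3% and 18.3% of all tested genes, and DESeq2 and limma-voom each called 9 higher and 0 lower. At an unadjusted p under 0.05, 3 were lower (Mef2c, Nrros and Tgfb1). Their median log2FC was 0.92, against -0.0034 for all tested genes. This list was drawn up with earlier results of these data known, and most of its genes are also expressed outside microglia. The 3 with the largest change were Itgb8 (0.731 ± 0.369 to 6.55 ± 3.75 CPM, log2FC 3.16 ± 0.53), which encodes an integrin subunit that activates transforming growth factor beta and is made by astrocytes and oligodendrocyte precursors, Mef2a (2.48 ± 1.04 to 18.1 ± 7.03 CPM, 2.86 ± 0.37), and Itgav (2.34 ± 0.555 to 16.9 ± 8.88 CPM, 2.85 ± 0.40), the partner of Itgb8. In each of these 3 genes, 24m replicate 1 was the lowest and 24m replicate 4 the highest library of the aged group. Smad3 and Tgfbr2, in the signalling path of the cytokine, rose as well (1.95 ± 0.15 and 1.87 ± 0.17), as did the myeloid factor Irf8 (0.75 ± 0.21). Spi1, which encodes PU.1 and is restricted to myeloid cells in the brain, had 10.9 CPM at 6m and 10.1 CPM at 24m (-0.11 ± 0.18, adjusted p = 0.610), and Tgfb1 had 17.5 and 13.1 CPM (-0.42 ± 0.17, adjusted p = 0.0520). Without 24m replicate 4, or with the length trend removed, 1 gene of this list was called lower.

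TMEM119 is a membrane protein used to tell microglia from infiltrating macrophages. Tmem119 (ENSMUSG00000054675, chromosome 5, 113931781 to 113938577, minus strand) had 18.2, 19.6, 19.5 and 19.7 CPM at 6m and 29.7, 23.5, 24.7 and 19.7 CPM at 24m. The 6m libraries were close together, whereas the 24m libraries ran from a level equal to 6m in replicate 4 to the highest in replicate 1. The log2FC was 0.34 ± 0.12 (95% interval 0.07 to 0.61, adjusted p = 0.0317), under the fold threshold. The adjusted p rose above 0.05 on leaving out any one of the 6m libraries (0.0559 to 0.0818) or 24m replicate 2 or 3 (0.0547 and 0.0703). The estimate was larger with the length trend removed (0.56, adjusted p = 0.000575), under library totals alone (0.55, adjusted p = 0.00155) and after removal of the GC trend (0.50, adjusted p = 0.000685), and smaller after quantile normalization (0.20, adjusted p = 0.269).

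The remaining 3 genes had lower means in the aged brain, and none of these differences passed the adjusted p threshold. Siglech, which encodes a sialic acid-binding lectin of microglia and plasmacytoid dendritic cells (ENSMUSG00000051504, chromosome 7, 55417926 to 55429195, plus strand), had 10.7, 11.7, 10.3 and 10.7 CPM at 6m and 10.99, 8.15, 8.45 and 6.59 CPM at 24m (log2FC -0.34 ± 0.15, 95% interval -0.68 to -0.01, adjusted p = 0.0702). Aif1, which encodes the calcium-binding protein IBA1 that is stained to see microglia (ENSMUSG00000024397, chromosome 17, 35387384 to 35395053, minus strand), had 9.95, 8.78, 9.16 and 9.35 CPM at 6m and 10.2, 6.64, 6.76 and 5.74 CPM at 24m (-0.34 ± 0.17, 95% interval -0.73 to 0.04, adjusted p = 0.104). In both genes, 3 of the 24m libraries were below every 6m library and 24m replicate 1 was not. Leaving that library out gave a log2FC of -0.48 (adjusted p = 0.00317) for Siglech and of -0.53 (adjusted p = 0.000969) for Aif1, past the p threshold and not the fold threshold. After quantile normalization, DESeq2 called both lower (Siglech -0.60, adjusted p = 0.00561, and Aif1 -0.62, adjusted p = 0.0119). Olfml3, which encodes a secreted olfactomedin-like protein (ENSMUSG00000027848, chromosome 3, 103629538 to 103645322, minus strand), had 33.2, 29.1, 31.5 and 33.9 CPM at 6m and 31.9, 27.0, 29.8 and 23.0 CPM at 24m (-0.19 ± 0.11, 95% interval -0.44 to 0.06, adjusted p = 0.159). The estimate was -0.25 (adjusted p = 0.0401) without 24m replicate 1 and -0.31 (adjusted p = 0.0368) with the length trend removed, past the p threshold and not the fold threshold, and its sign turned with library totals alone (0.02).

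**Figure D2:**
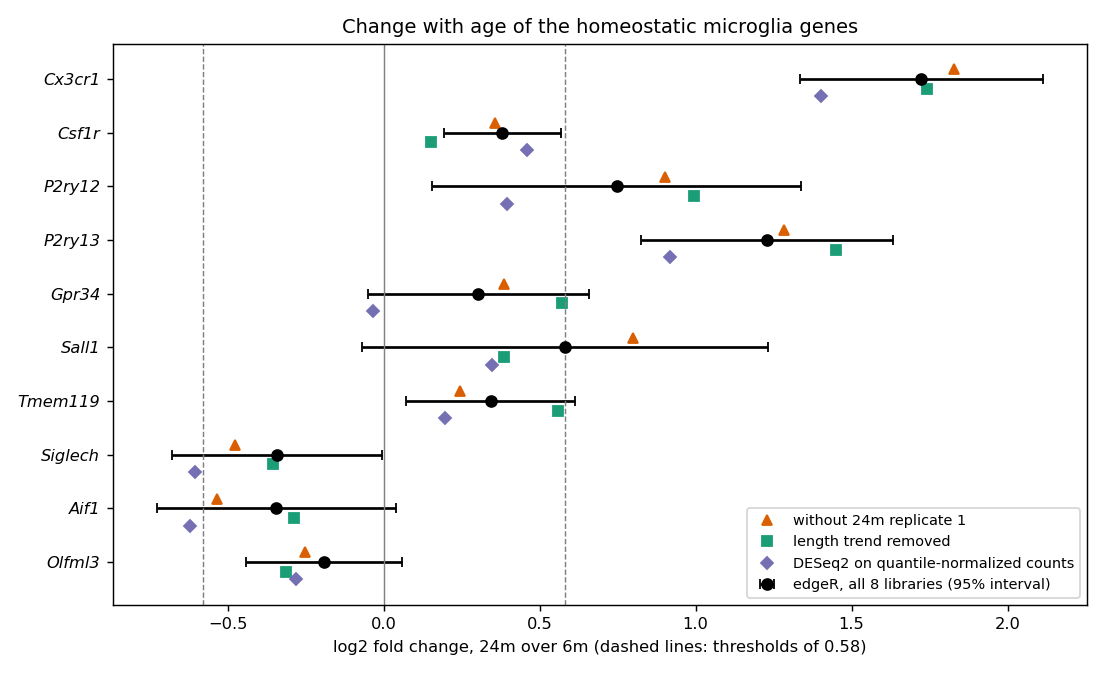
Log2FC (24m over 6m, horizontal axis) of each of the 10 genes from edgeR with its 95% interval (black, all 8 libraries), and under 3 other settings: without 24m replicate 1, with the trend over exonic length removed, and with DESeq2 on quantile-normalized counts. The intervals of Cx3cr1 (1.33 to 2.11) and P2ry13 (0.83 to 1.63) lie wholly above the fold threshold of 0.58, drawn as a dashed line on each side.

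Set out per library, the 10 genes fell into opposite orders within the aged group. In 24m replicate 1, 5 genes had their highest value among the aged libraries (Tmem119, Csf1r, Siglech, Aif1 and Olfml3) and 4 had their lowest (P2ry12, Cx3cr1, Sall1 and Gpr34). In 24m replicate 4 it was the reverse, with the lowest value of the same 5 genes and the highest of the same 4. P2ry13 had its highest value in 24m replicate 3 and its lowest in replicate 2. At 6m, replicate 1 was lowest for 5 genes (P2ry13, Tmem119, Cx3cr1, Csf1r and Sall1) and replicate 4 for 2 (P2ry12 and Gpr34), a different grouping. The 5 genes highest in 24m replicate 1 have exons of 45.4 to 58.0% GC and the 4 highest in 24m replicate 4 of 37.1 to 53.1%. What orders the genes across the aged libraries was not tested.

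**Figure D3:**
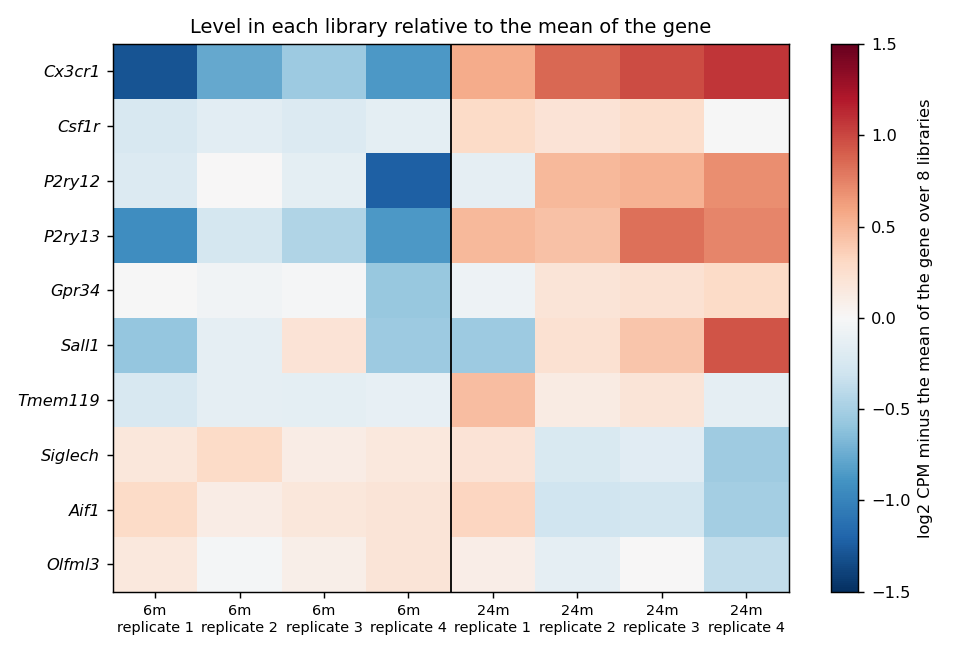
Log2 CPM of each gene (rows) in each library (columns) minus the mean of that gene over the 8 libraries, from blue (lower) to red (higher). Cx3cr1 and P2ry13 are blue in all 6m columns and red in all 24m columns, whereas Siglech and Aif1 are red in 24m replicate 1 and blue in the other 24m columns.

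Levels were then compared between genes per length, as CPM divided by the kilobases of exon (RPKM). The length is that of the exons of all annotated transcripts of a gene together, in a later annotation than the one used for counting. It can exceed that of 1 transcript, as for P2ry12 with 3206 bases against 2394. The order of the genes, their sum and their shares therefore depend on the annotation. At 6m the order was Csf1r (13.02 ± 0.370 RPKM), Tmem119 (5.89 ± 0.215), Olfml3 (5.18 ± 0.347), Siglech (2.22 ± 0.116), Aif1 (2.20 ± 0.115), Sall1 (1.77 ± 0.473), P2ry12 (1.15 ± 0.367), Gpr34 (0.934 ± 0.160), Cx3cr1 (0.897 ± 0.184) and P2ry13 (0.570 ± 0.128). From Siglech down to Cx3cr1, neighbours in this order were not separated by their spread (mean ± SD). At 24m Csf1r (16.9 ± 1.54 RPKM), Tmem119 (7.47 ± 1.26) and Olfml3 (4.53 ± 0.622) again led, and Cx3cr1 (2.96 ± 0.433) came next, a level not separated by its spread from that of Sall1 (2.64 ± 1.06). P2ry12 (1.93 ± 0.436 RPKM), Siglech (1.75 ± 0.373), Aif1 (1.73 ± 0.460), P2ry13 (1.34 ± 0.174) and Gpr34 (1.15 ± 0.123) followed, and among these the spreads of neighbours in the order overlapped. The sum over the 10 genes was 33.8 ± 0.847 RPKM at 6m (32.8 to 34.6) and 42.4 ± 2.30 RPKM at 24m (39.6 to 44.3), without overlap.

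The share of each gene in that sum does not depend on the scaling between libraries. Cx3cr1 made up 2.64 ± 0.485% of the sum at 6m and 7.02 ± 1.30% at 24m, and P2ry13 1.68 ± 0.340% and 3.16 ± 0.449%. These 2 shares were higher in every 24m library than in every 6m library. Olfml3 (15.3 ± 1.33% to 10.6 ± 0.929%), Siglech (6.55 ± 0.348% to 4.09 ± 0.701%) and Aif1 (6.51 ± 0.493% to 4.05 ± 0.921%) were lower in every 24m library, 24m replicate 1 included. The shares of the other 5 genes overlapped between the ages, with Csf1r at 38.5 ± 1.22% and 39.9 ± 1.80% and Tmem119 at 17.4 ± 0.477% and 17.5 ± 2.19%. The log2 ratio of Cx3cr1 to each of the other 9 genes, likewise free of scaling, was higher in all 24m libraries than in all 6m libraries for all 9. Mean differences ran from 0.49 against P2ry13 to 2.11 against Aif1. Their direction followed from the choice of Cx3cr1, the gene with the largest log2FC, and is no separate result. Against P2ry12 the ages nearly touched, with 1.065 as the highest 6m and 1.075 as the lowest 24m ratio.

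**Figure D4:**
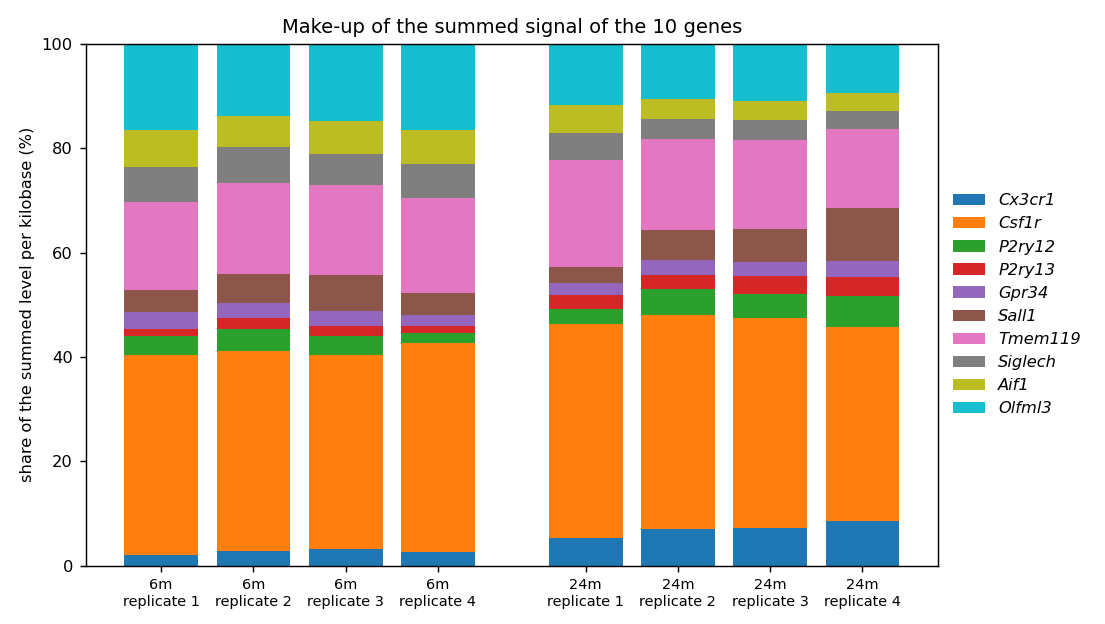
Share of each of the 10 genes (colours) in their summed level per kilobase of exons (vertical axis, percent) in each library (horizontal axis). The share of Cx3cr1 is 2.64% on average at 6m and 7.02% at 24m, and the combined band of Siglech, Aif1 and Olfml3 is narrower in the 24m libraries.

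The other microglia-enriched genes gave a mixed picture as well. Of 29 tested, 8 were called higher, 1 lower and 20 neither, with a median log2FC of 0.21. Of all tested genes 25.3% were called higher and 18.3% lower, so that 8 of 29 is near the share of all genes. The largest changes with a mean above 1 CPM over all libraries were in Cmtm6 (1.92 ± 0.365 to 5.23 ± 1.05 CPM, log2FC 1.45 ± 0.20), Itgam (5.71 ± 1.25 to 15.4 ± 1.81 CPM, 1.44 ± 0.17), which encodes the CD11b subunit of complement receptor 3, and Laptm5 (18.4 ± 1.84 to 35.4 ± 3.74 CPM, 0.94 ± 0.11), which encodes a lysosomal membrane protein of blood-derived lineages. Ptprc, under that mean (0.369 to 1.24 CPM), had 1.75 ± 0.33. Ltc4s, encoding leukotriene C4 synthase, was the gene that fell (-0.85 ± 0.14). The widely used markers Trem2 and Tyrobp missed the threshold: Trem2 had 37.0 and 37.5 CPM (0.02 ± 0.19, adjusted p = 0.935), and Tyrobp had 39.6 and 33.6 CPM (-0.24 ± 0.22, adjusted p = 0.358). With library totals alone 13 genes of this list were called higher, and without 24m replicate 1 2 were called lower. Of the 20 genes of the disease-associated state, 7 were called higher and 3 lower (1 lower under library totals alone), against 25.3% and 18.3% of all tested genes. The median of the list was 0.22. The 3 called lower were Fth1 (-0.97 ± 0.20), Cd63 (-0.66 ± 0.17) and Csf2ra (-0.60 ± 0.14). Apoe had a log2FC of -0.54 ± 0.15, short of the fold threshold, and Spp1 one of -0.006 ± 0.12. Itgax (0.329 ± 0.063 to 4.43 ± 1.18 CPM, 3.74 ± 0.26) and Cst7 (0.318 ± 0.056 to 2.48 ± 0.872 CPM, 2.95 ± 0.28) led this list, followed among genes above 1 CPM by Lgals3 (1.19 ± 0.30), and none of these 3 shares the within-age order of Cx3cr1, since 24m replicate 4 was their lowest aged library.

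**Figure D5:**
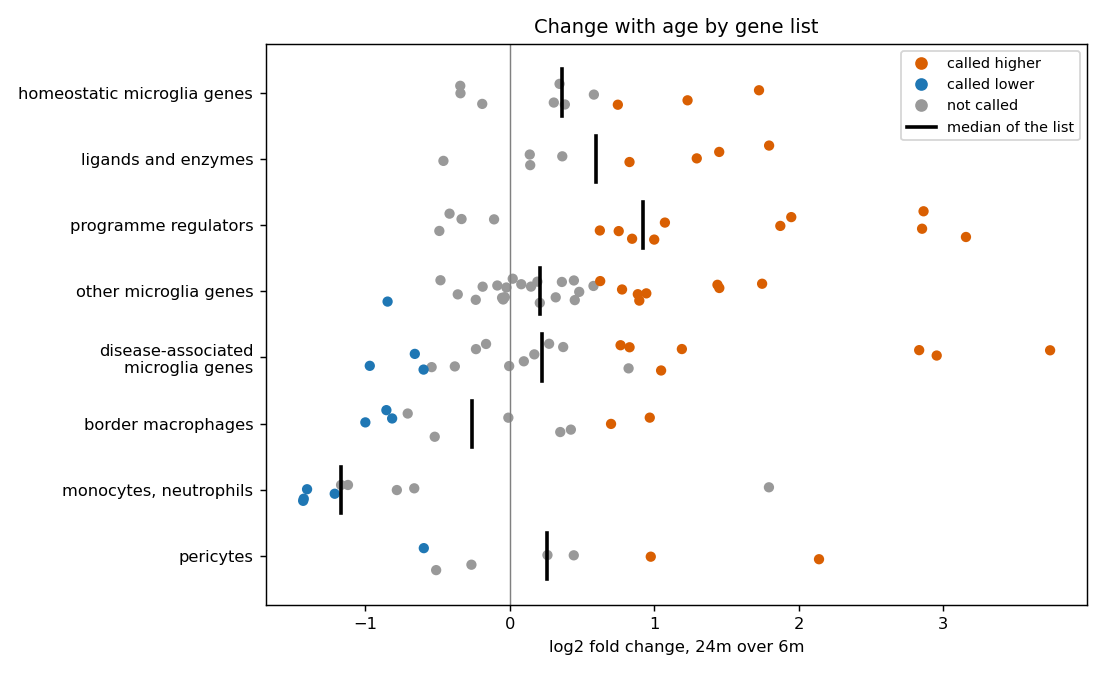
Log2FC (24m over 6m, horizontal axis) of every tested gene in 8 lists (rows), coloured by call, with the median of each list as a black bar. The 10 homeostatic genes have a median of 0.36 with 3 called higher and 0 lower, and the monocyte and neutrophil list has 0 called higher and 4 lower. Of all tested genes, 25.3% were called higher and 18.3% lower.

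Markers of other cells that the tissue holds were examined in the same fit, in which 25.3% of all tested genes were called higher and 18.3% lower. These shares are the background for each list below. Of 10 border macrophage genes, 2 were called higher and 3 lower (Cbr2, Pf4 and Clec10a), and their summed level was 11.2 to 12.5 CPM at 6m and 7.26 to 12.4 CPM at 24m, the highest being 24m replicate 1; leaving out any one library left 1 called higher, and with the length trend removed 0 were called lower. Of 9 tested monocyte and neutrophil genes, 0 were called higher and 4 lower by edgeR, DESeq2 and limma-voom alike (also 0 higher at an unadjusted p under 0.05), and the sum was 5.37 to 13.6 CPM at 6m and 3.16 to 9.36 CPM at 24m. That count became 7 on leaving out 24m replicate 1, it became 2 on leaving out replicate 1 or 3 of 6m or replicate 4 of 24m, and it became 1 on leaving out replicate 4 of 6m or replicate 2 or 3 of 24m. It was 2 under library totals alone and 1 with the length trend removed. Ccr2, which defines inflammatory monocytes, was near 0 in both ages (0.0152 and 0.0376 CPM) and too low to be tested. The part of border macrophages and blood cells in the values of the 10 genes was not tested. No gene of any list was at 0 in every library.

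Lymphocyte and plasma cell genes (8 of 12 tested) had 3 called higher and 1 lower, again beside 25.3% and 18.3% of all tested genes. Their sum was 31.2 to 33.4 CPM at 6m and 19.4 to 45.7 CPM at 24m, where 24m replicate 1 was again the highest. Without 6m replicate 1, 1 of them was called higher, and 3 were called lower without 24m replicate 1 and 0 without 24m replicate 4, under library totals alone or with the length trend removed. Pericyte genes (7) had 2 called higher and 1 lower, and the latter count was 2 without 24m replicate 1 and 0 on leaving out replicate 1 or 4 of 6m or replicate 2 of 24m, or in either of those settings. Among parenchymal cells, 5 of 8 astrocyte genes were called higher and 0 lower, 2 of 9 neuron genes higher and 1 lower (0 lower without 24m replicate 4 or under library totals alone), and 1 of 8 oligodendrocyte genes higher and 0 lower (1 lower without 24m replicate 1). Endothelial genes (8) had 1 called higher and 2 lower, with 2 called higher without 6m replicate 1 or 2 or 24m replicate 1 or 2, and likewise in both of those settings.

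Last, all tested genes averaging 1 CPM or more were ranked by how closely their pattern over the 8 libraries followed the mean pattern of the 10 genes, measured as the root mean square difference of centred log2 CPM. Of 13538 genes ranked, the nearest were 5 from outside the set, Akap1 (0.0548), Rgs12 (0.0565), Isca1 (0.0580), Ckap4 (0.0584) and Gdap2 (0.0598). Of the 10 genes themselves, Csf1r was the nearest to their mean (0.131), followed by Gpr34 (0.156) and Tmem119 (0.190), and Cx3cr1 was the farthest from it (0.675). In the ranking of all 13538 genes, Csf1r stood at rank 497 and Cx3cr1 at rank 11387, with the other 8 between them.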

How the data were processed

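Poly(A) RNA from hemispheres of 4 male mice of 6 months and 4 of 24 months was sequenced, and each library is a separate animal. Per the labels, the processing notes of the submitters and the paper's methods, the authors trimmed reads with Trim Galore 0.4.11, aligned them to GRCm39 with HISAT2 2.1.0 and counted them per Ensembl gene (release 103) with featureCounts. The deposited values are raw whole-number counts. Whether strand and multimapping reads were used is not stated, so values of overlapping genes are uncertain. Of 22430 genes, 22281 matched the GENCODE annotation of GRCm39 and 149 (0.312% of counts) did not.

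Genes above 5 counts in 4 or more libraries were fitted with edgeR 4.0.16 (R 4.3.3; quasi-likelihood test, trimmed mean of M values factors, age as the only term), and p-values were adjusted by Benjamini-Hochberg over all 16730 genes. Called genes had an adjusted p of at most 0.05 and an absolute log2 fold change of at least 0.58. The common coefficient of biological variation was 0.184. Intervals cover 95%. On simulated counts for the 24m against 6m comparison (16656 genes), 89% of 200 genes raised by a log2 value of 1 were recovered with 6 unchanged genes called. The simulation gave every gene the common coefficient of variation, changed genes upward only and held no outlying library. In the data 43.6% of genes were called, in both directions, so these figures check the procedure and do not give its error rates here.

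The 10 genes, the 14 other lists and the naming rule were chosen with earlier results of these data known. Named in full were the 10 genes, Cx3cl1, Csf1, Il34, Entpd1, Med12l and Cask, up to 3 called genes of each other list with a mean of at least 1 CPM, by size of change, and the 5 genes of most similar pattern. Other genes were named after their values were seen. Fcrls and Lrrc33 were not matched by name. Alternatives were DESeq2 1.42.0, also on quantile-normalized counts, limma-voom 3.58.1, other scaling and filters, thinning, length and GC trends removed, a replicate block and each library left out.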

Additional observations from a re-analysis of the deposited data

Results flagged for a closer look

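In 2 of the 20 groups of 4 libraries examined (10 genes at 2 ages), 1 library lay far from the other 3 relative to the range of the group, and chance gives about 1 such group in 20. Tmem119 had 18.2 CPM in 6m replicate 1, against 19.5 to 19.7 CPM in the other 6m libraries, a gap that took up 0.830 of the range of the group. Gpr34 had 2.13 CPM in 6m replicate 4, against 3.05 to 3.15 CPM in the others, a gap of 0.902 of the range. Without that library the log2 fold change of Gpr34 was 0.19 (adjusted p = 0.255, edgeR), and without 6m replicate 1 that of Tmem119 was 0.32 (adjusted p = 0.0818).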

How the results depend on the processing

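Over 21 alternatives for each of the 10 genes, 208 of 210 log2 fold changes kept their sign; Gpr34 turned to -0.033 when quantile-normalized counts were given to DESeq2 (adjusted p = 0.837), and Olfml3 to 0.022 with library totals alone (adjusted p = 0.840). Quantile normalization also gave 2 genes called lower, Aif1 (-0.62, adjusted p = 0.0119) and Siglech (-0.60, adjusted p = 0.00561), and left P2ry12 at 0.39 (adjusted p = 0.137). The median of the 10 genes was 0.57 with library totals alone, where the median of all genes moved to 0.21, and 0.47 with the length trend removed. With the length trend removed and 24m replicate 1 left out, an alternative added after the data were seen, the median was 0.54 and 5 genes were called higher, Gpr34 and Sall1 being added. Without a fold threshold 5 genes were called higher. P2ry12 was also lost with the GC trend removed (0.46), and the causes of these differences were not tested. With the replicate block the same 3 genes were called higher (P2ry12 adjusted p = 0.0486) and the adjusted p of Tmem119 was 0.0698; the replicate numbers did not pair the animals, since same-numbered libraries of the 2 ages had deviations correlated at 0.27, 0.14, 0.08 and -0.35. Leaving out each library in turn gave a median of 0.35 to 0.37. The lowest read count of a gene in a library was 98 (P2ry13), and precision rests on 4 animals per age.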
